A study of Homo sapiens with 9 samples.

Results

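The enzymes ARG2, PRODH, OAT, ODC1, ASS1, ASL, PYCR1, ALDH18A1 and ALDH4A1 make, convert or break down arginine, ornithine and proline. These 9 genes were taken from 23931 genes measured, each with 1 probe set, and all were measured on every array. ARG2 and PRODH were chosen by their measured values, because they stood among the largest rises and falls in both comparisons of activated cells with control cells, so their values there are a description and carry no test. The other 7 were added as enzymes of the same routes, with results of these data already known. The samples were cultures of H2009, an established human lung adenocarcinoma line. Every group, controls included, was built with CRISPRa, a Cas9 that cannot cut DNA joined to the activating domains VP64, p65 and Rta, and was grown with blasticidin. One group carried the guide sgRNA-A and another sgRNA-B, both made to raise the microRNAs of the 14q32 locus, and the control group carried a vector with no guide. Each group had 3 arrays, which the series' design text calls biological replicates of each clone. Each guide stands for 1 clone, so guide and clone cannot be told apart, and p-values cover only the spread between these cultures.

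Arginine is made from citrulline and aspartate by ASS1 and ASL, and arginases split it into urea and ornithine. ARG2 is the mitochondrial arginase, found in many tissues outside the liver. Ornithine then has separate fates: OAT turns it into the glutamate semialdehyde that leads to proline or glutamate, and ODC1 turns it into putrescine, the first polyamine. Proline is made from glutamate by ALDH18A1 and PYCR1, and is returned to glutamate inside mitochondria by PRODH and ALDH4A1. PRODH feeds electrons from proline into the respiratory chain and is also known as a target of p53.

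Values are deposited log2 levels from RMA, a method that puts all arrays on 1 distribution, so a shift common to all genes of an array would not show. Each array had a median of 4.91 log2 units. Correlations between arrays of the same group ranged from 0.9970 to 0.9982, and the array farthest from its group was sgRNA-A replicate 3, at a root mean square distance of 0.168 log2 units against 0.126 to 0.146 for the others. All 9 enzymes had means above 4.49 log2 units, a level that 95% of 375 olfactory receptor genes, taken as silent in these cells, did not exceed. Epithelial markers EPCAM, CDH1, KRT7, KRT18 and KRT19 had group means of 11.24 to 13.03 log2 units. KRT8 had 7.51 to 7.72, and the lung lineage factor NKX2-1 had 9.43 to 9.49. Of all these markers, KRT7 alone passed the test, lower with sgRNA-A by 0.18 (limma, adjusted p = 0.0170). The same test against control called 2.18% of all genes for sgRNA-A and 3.07% for sgRNA-B. Nothing is therefore read from this 1 call. The surfactant gene SFTPB and the protease gene NAPSA lay below the level of the olfactory receptor genes.

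ARG2 was higher and PRODH was lower in both activated clones. ARG2 measured 6.60, 6.71 and 6.47 log2 units on the control arrays, 7.35, 7.42 and 7.35 with sgRNA-A, and 7.84, 7.66 and 7.67 with sgRNA-B. The lowest activated array lay above the highest control array, and every sgRNA-B array lay above every sgRNA-A array. The control mean was 6.59 ± 0.12 (SD, n = 3), against 7.38 ± 0.04 for sgRNA-A and 7.72 ± 0.10 for sgRNA-B. These are log2 fold changes of 0.78 and 1.13, or 1.72-fold and 2.19-fold. By size, ARG2 was number 5 among all rises with sgRNA-A and number 2 with sgRNA-B.

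PRODH, the enzyme of the first step of proline breakdown, measured 7.28, 7.46 and 7.37 log2 units on the control arrays. It measured 6.53, 6.45 and 6.50 with sgRNA-A and 6.79, 6.50 and 6.55 with sgRNA-B. Every activated array lay below every control array, the arrays of the 2 guides overlapped, and sgRNA-B replicate 1 was the highest activated array. The control mean was 7.37 ± 0.09, against 6.49 ± 0.04 for sgRNA-A and 6.62 ± 0.16 for sgRNA-B. The level was thus 54.5% of control with sgRNA-A (log2 fold change -0.88) and 59.2% with sgRNA-B (-0.76). PRODH was number 13 among all falls with sgRNA-A and number 12 with sgRNA-B. Both comparisons use the same 3 control arrays, so they are not independent of each other.

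**Figure D1:**
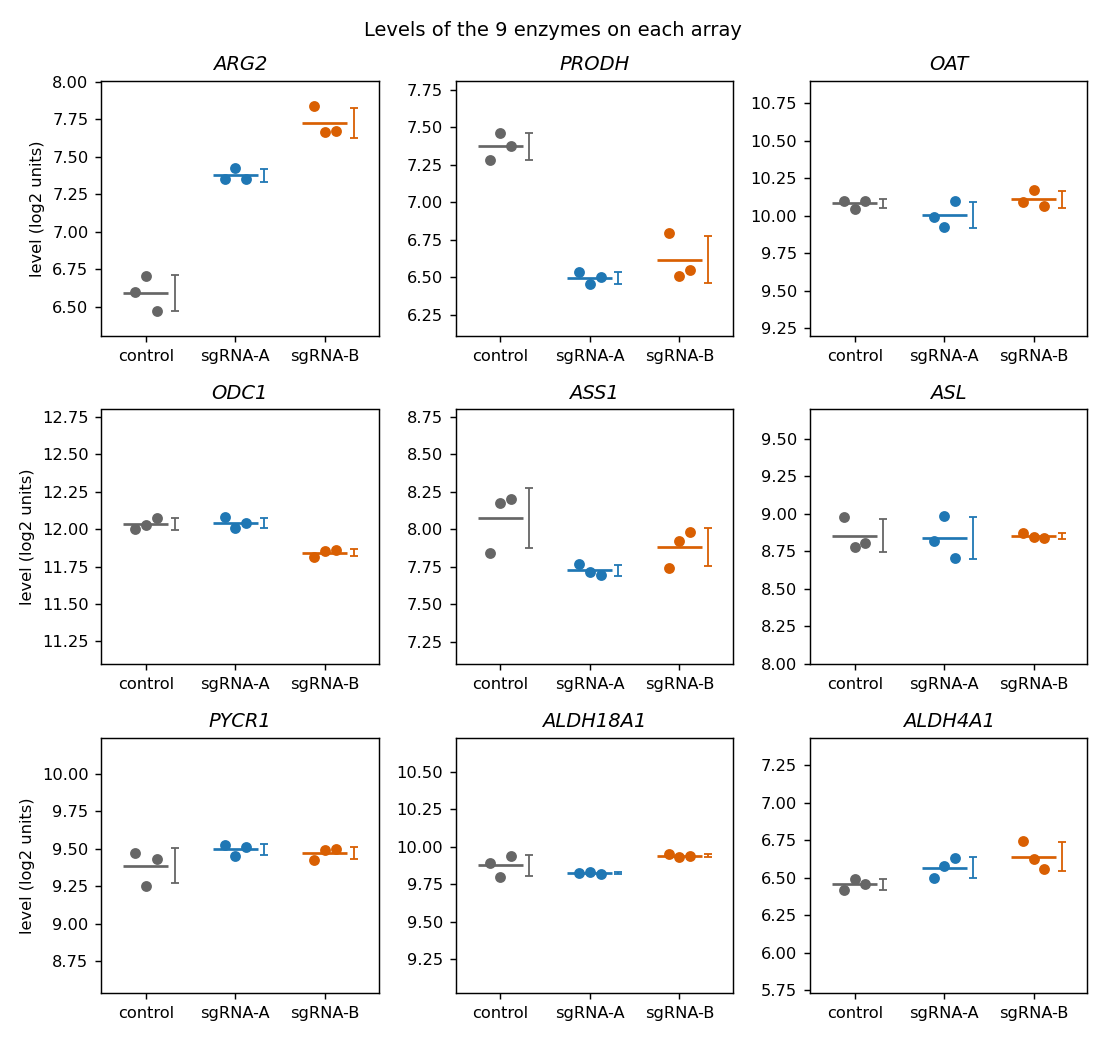
Level of each enzyme in log2 units on each of the 9 arrays, by group. Points are arrays, horizontal lines are group means, the bar at the right of each group is the SD of its 3 arrays, and every panel spans the same height of log2 units. ARG2 separates all 3 groups, PRODH separates control from activated arrays, and ODC1 separates sgRNA-B from the other groups.

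The start regions of ARG2, of ODC1 and of SAT1, a polyamine-breakdown gene described further on, are shown. They were picked from the genes that differed between groups and have an entry in RefSeq's promoter table (GRCh38.p14). The carriers SLC6A14, SLC38A2 and SLC3A2, also described further on, meet both conditions and are not printed. PRODH and PYCR1 have no entry in the promoter table, and 7 of the 9 enzymes do. Each sequence is the 250 bases before the annotated start, read 5′ to 3′ on the gene's strand. Capitals mark TGACGTCA, the cAMP response element bound by CREB and ATF factors, searched on both strands.
ARG2, chr14:67619670-67619919, plus strand: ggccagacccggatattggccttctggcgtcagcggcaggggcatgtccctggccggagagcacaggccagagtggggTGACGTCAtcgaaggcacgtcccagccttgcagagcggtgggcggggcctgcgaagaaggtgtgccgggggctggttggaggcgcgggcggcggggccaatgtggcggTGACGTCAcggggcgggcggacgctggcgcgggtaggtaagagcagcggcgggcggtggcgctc
ODC1, chr2:10448328-10448577, minus strand: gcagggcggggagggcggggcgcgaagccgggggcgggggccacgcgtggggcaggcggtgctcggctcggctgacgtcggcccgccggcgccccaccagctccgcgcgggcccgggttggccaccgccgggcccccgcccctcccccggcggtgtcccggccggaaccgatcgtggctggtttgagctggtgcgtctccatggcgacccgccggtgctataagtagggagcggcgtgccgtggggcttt
SAT1, chrX:23782923-23783172, plus strand: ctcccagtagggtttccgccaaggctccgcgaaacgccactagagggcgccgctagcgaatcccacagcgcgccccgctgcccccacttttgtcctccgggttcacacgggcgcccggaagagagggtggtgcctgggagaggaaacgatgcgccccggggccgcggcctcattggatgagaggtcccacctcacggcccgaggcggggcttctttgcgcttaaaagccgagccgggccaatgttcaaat
The ARG2 region holds this element 2 times, at bases 172 to 165 and 64 to 57 before the start, and those of the other 6 enzymes with an entry hold it 0 times. The regions of SAT1, SLC6A14, SLC38A2 and SLC3A2 hold it 0 times too. Among 27305 such regions 1.77% hold it and 0.0586% hold it 2 or more times. The E-box CACGTG, in 6.49% of regions, was found in ALDH18A1 alone among the 7. The CCAAT box (CCAAT), GC box (GGGCGG) and TATA box (TATAAA) were also searched, and 33.0%, 42.3% and 11.1% of regions hold them. The ARG2 region holds 2 CCAAT boxes, 5 GC boxes and 0 TATA boxes. The cAMP response element has the smallest share of all the motifs searched. The share of 0.0586% takes no account of the other motifs and carries no test. The 250 bases of ARG2, ODC1 and SAT1 are 72.4%, 78.8% and 66.4% G or C. Matches of letters describe these windows and were not tied to the measured levels by any test.

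In the enzymes that use ornithine, ODC1 fell with sgRNA-B and OAT passed the test in neither comparison with control cells. ODC1, the rate-limiting enzyme of polyamine synthesis, measured 12.00, 12.03 and 12.08 log2 units on the control arrays, 12.08, 12.01 and 12.04 with sgRNA-A, and 11.82, 11.86 and 11.86 with sgRNA-B. The sgRNA-B arrays lay below all other arrays and varied little, while the sgRNA-A and control arrays overlapped. With sgRNA-B the log2 fold change was -0.19 (SE 0.03; limma, adjusted p = 0.00667), or 87.5% of the control level. With sgRNA-A it was 0.01 (95% interval -0.06 to 0.08; adjusted p = 0.960). Under a fit without a variance trend the adjusted p for sgRNA-B was 0.0584, and over all alternatives tried it ranged from 0.00438 to 0.0584.

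OAT, the mitochondrial aminotransferase of ornithine, measured 10.10, 10.05 and 10.10 on the control arrays, 9.99, 9.92 and 10.10 with sgRNA-A, and 10.09, 10.17 and 10.06 with sgRNA-B. The groups overlapped. The log2 fold change was -0.08 with sgRNA-A (95% interval -0.19 to 0.03; limma, adjusted p = 0.575) and 0.03 with sgRNA-B (-0.08 to 0.14; adjusted p = 0.885).

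The enzymes that make arginine did not pass the test with either guide. ASS1, which joins citrulline to aspartate, measured 7.84, 8.17 and 8.21 log2 units on the control arrays, 7.77, 7.72 and 7.69 with sgRNA-A, and 7.74, 7.92 and 7.98 with sgRNA-B. All sgRNA-A arrays lay below all control arrays, and control replicate 1 was well below the other controls. The log2 fold change with sgRNA-A was -0.35 (95% interval -0.56 to -0.14; limma, adjusted p = 0.0879), and without control replicate 1 it was -0.46 and passed (adjusted p = 0.0283). Over all alternatives its adjusted p ranged from 0.0283 to 0.257. With sgRNA-B the log2 fold change was -0.19 (-0.40 to 0.01; adjusted p = 0.384), and the arrays overlapped those of control cells.

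ASL, which releases arginine from argininosuccinate, measured 8.98, 8.78 and 8.81 on the control arrays, 8.82, 8.98 and 8.71 with sgRNA-A, and 8.87, 8.84 and 8.84 with sgRNA-B. The groups overlapped throughout. The log2 fold changes were -0.02 (95% interval -0.18 to 0.14) and 0.00 (-0.16 to 0.16), with limma's adjusted p at 0.953 and 0.993.

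The enzymes that make proline and ALDH4A1, which completes its breakdown after PRODH, did not pass the test either. PYCR1, which reduces pyrroline carboxylate to proline, measured 9.47, 9.25 and 9.43 log2 units on the control arrays, 9.52, 9.45 and 9.51 with sgRNA-A, and 9.42, 9.49 and 9.50 with sgRNA-B. Its groups overlapped, with log2 fold changes of 0.11 with sgRNA-A (95% interval -0.02 to 0.24; limma, adjusted p = 0.460) and 0.08 with sgRNA-B (-0.04 to 0.21; adjusted p = 0.576). ALDH18A1, the enzyme that commits glutamate to proline and ornithine, measured 9.89, 9.80 and 9.94 on the control arrays, 9.83, 9.83 and 9.82 with sgRNA-A, and 9.95, 9.93 and 9.94 with sgRNA-B. The control arrays overlapped those of each guide, and every sgRNA-B array lay above every sgRNA-A array. Its log2 fold changes were -0.05 (-0.15 to 0.05; limma, adjusted p = 0.703) and 0.06 (-0.03 to 0.16; adjusted p = 0.584).

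ALDH4A1, which oxidises the product of PRODH to glutamate, measured 6.42, 6.49 and 6.46 on the control arrays, 6.50, 6.58 and 6.63 with sgRNA-A, and 6.74, 6.62 and 6.56 with sgRNA-B. All activated arrays lay above all control arrays, by a narrow margin. The log2 fold changes of 0.11 (95% interval -0.09 to 0.31; limma, adjusted p = 0.682) and 0.18 (-0.01 to 0.38; adjusted p = 0.386) did not pass. PRODH, the preceding enzyme of the same route, was lower in the same cells.

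With sgRNA-A the fit called 2 of the 9 enzymes, ARG2 higher and PRODH lower, against 2.18% of all genes (0.957% higher and 1.22% lower). With sgRNA-B it called 3, ARG2 higher and PRODH and ODC1 lower, against 3.07% of all genes (1.56% higher and 1.51% lower). ARG2 and PRODH were chosen on these comparisons, so nothing is read from these shares. Of the other 7, 0 passed with sgRNA-A and 1 with sgRNA-B. Their log2 fold changes ran from -0.35 to 0.11 with sgRNA-A and from -0.19 to 0.18 with sgRNA-B, and the widest bounds of their 95% intervals were -0.56 and 0.38. Groups that do not overlap were common in these data, at 17.8% of all genes for sgRNA-A and 20.2% for sgRNA-B. The separations of ASS1 with sgRNA-A and of ALDH4A1 with both guides are of this kind. RefSeq lists 14 pseudogenes of ASS1 and 1 each of ARG2, PRODH, OAT and ASL, and whether the probes tell these copies apart was not tested.

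**Figure D2:**
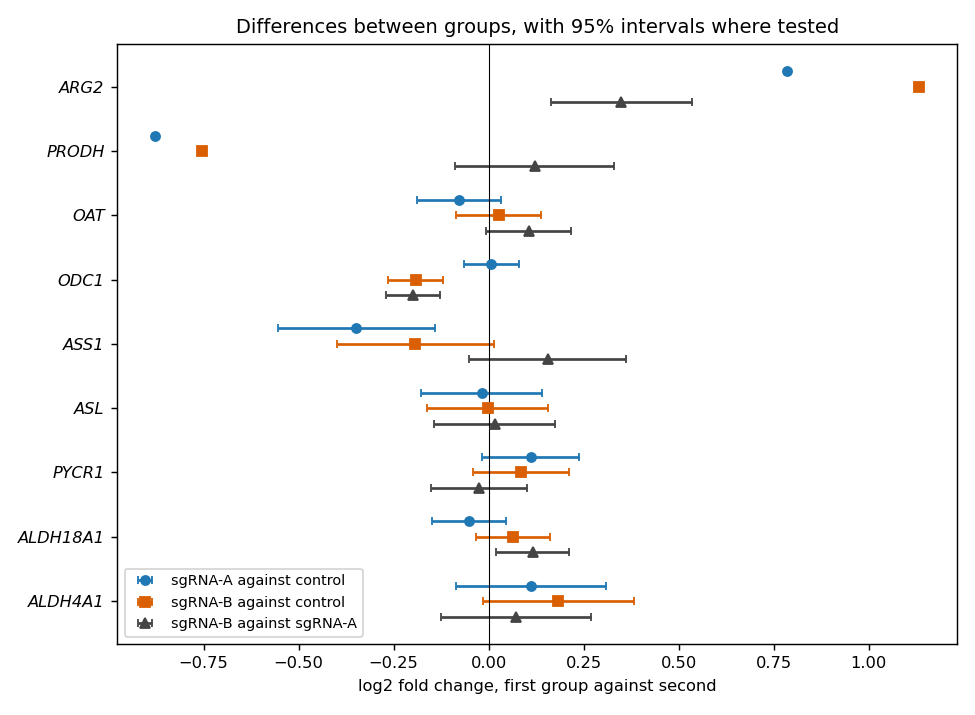
Log2 fold change of each enzyme in the 3 comparisons, each the first group minus the second. Bars are 95% intervals of the limma fit and are left out for ARG2 and PRODH against control, which were chosen on those values. Apart from ARG2 and PRODH, the values lie between -0.35 and 0.18.

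The comparison of the guides with each other, on which no member was chosen, called ODC1 alone among the 9, lower with sgRNA-B by 0.20 on the log2 scale (value -0.20, SE 0.03; limma, adjusted p = 0.0413). The background is 0.104% of all genes (0.0627% higher and 0.0418% lower with sgRNA-B). The sgRNA-B arrays, at 11.82 to 11.86 log2 units, lay below the sgRNA-A arrays at 12.01 to 12.08. The call was near the threshold: limma's adjusted p was 0.0734 without control replicate 1, and without any 1 of the 6 guide arrays it was 0.0764 to 0.253. Over the 18 alternatives the adjusted p ranged from 0.0302 to 0.253 and passed in 9.

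ARG2 was higher with sgRNA-B than with sgRNA-A by 0.35 on the log2 scale (95% interval 0.16 to 0.53), and this did not pass over all genes (limma, adjusted p = 0.187). Its arrays did not overlap between the guides, which held for 15.9% of all genes. PRODH differed by 0.12 (-0.09 to 0.33; limma, adjusted p = 0.692). ALDH18A1 differed by 0.12 (0.02 to 0.21; adjusted p = 0.397), again without overlap of arrays. The remaining 5 enzymes differed by between -0.03 for PYCR1 and 0.16 for ASS1, and their arrays overlapped.

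Of other genes of arginine, proline and polyamine metabolism, SAT1 fell with both guides. A list of 57 such genes, drawn up with earlier results known, had 53 measured members, of which 40 lay above the level of the olfactory receptor genes. With sgRNA-A 3 fell, 0 rose and 50 did not pass, and with sgRNA-B 4 fell, 0 rose and 49 did not pass. Over all genes 1.22% fell for sgRNA-A and 1.51% for sgRNA-B, while 0.957% and 1.56% rose. At those shares nothing is read from 0 rises. The median log2 fold change was 0.01 and 0.00, as for all genes (0.00 and 0.00).

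Polyamine genes had 13 measured members, of which 1, SAT1, fell with each guide, and 12 did not pass (all genes: 1.22% lower with sgRNA-A, 1.51% with sgRNA-B). SAT1 acetylates spermidine and spermine for breakdown or export. It measured 10.30, 10.46 and 10.22 log2 units on the control arrays, 9.64, 9.71 and 9.74 with sgRNA-A, and 9.80, 9.83 and 9.70 with sgRNA-B. All activated arrays lay below all control arrays. The log2 fold change was -0.63 with sgRNA-A (SE 0.06; limma, adjusted p = 0.000196) and -0.55 with sgRNA-B (SE 0.06; adjusted p = 0.000436). Spermidine synthase SRM (-0.06 and 0.04), spermine synthase SMS (0.14 and 0.05) and AMD1 (-0.04 and -0.08), which supplies their aminopropyl donor, did not pass, nor did OAZ1 (0.10 and 0.08), the antizyme that directs ODC1 to degradation.

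Of the 8 measured genes that use arginine by other routes, 0 passed in either comparison (all genes: 2.18% with sgRNA-A, 3.07% with sgRNA-B). The liver arginase ARG1 and the synthases NOS1 and NOS2 lay below the level of the olfactory receptor genes, at group means of at most 4.18. GATM, which starts creatine synthesis, had a log2 fold change of 0.05 with sgRNA-A and 0.30 with sgRNA-B (limma, adjusted p = 0.0600). Among 3 urea cycle genes, CPS1 and OTC lay below that level too, and NAGS, whose product activates CPS1, had values of 0.43 and 0.18 that did not pass (adjusted p = 0.105 and 0.574). Of 8 other proline genes, among them PYCR3, the prolidase PEPD and the prolyl hydroxylases P4HA1 and P4HA2, 0 passed, with log2 fold changes of -0.15 to 0.17 over both guides. Of 5 glutamate and aspartate enzymes 0 passed, the largest values being those of asparagine synthetase ASNS (0.31 and 0.26). At the shares over all genes, nothing is read from counts of 0 in lists this short.

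Carriers of these amino acids had 16 measured members. Of these, 2 fell with sgRNA-A (1.22% of all genes), 3 with sgRNA-B (1.51% of all genes) and 0 rose. Rises made up 0.957% of all genes with sgRNA-A and 1.56% with sgRNA-B, so nothing is read from 0 rises. SLC6A14, which imports arginine and other neutral and basic amino acids, measured 5.68, 5.31 and 5.20 on the control arrays, 4.57, 4.54 and 4.56 with sgRNA-A, and 4.73, 4.69 and 4.48 with sgRNA-B, the activated arrays being close to the level of the olfactory receptor genes. Its log2 fold change was -0.84 with sgRNA-A (SE 0.12; limma, adjusted p = 0.00398) and -0.76 with sgRNA-B (adjusted p = 0.00452). SLC38A2, a carrier of proline and other small amino acids, fell by 0.21 with sgRNA-A (limma, adjusted p = 0.00542, but 0.0564 without a variance trend) and by 0.23 with sgRNA-B (adjusted p = 0.00250). SLC3A2, the chain shared by several exchangers, fell with sgRNA-B by 0.29 (adjusted p = 0.00140). With sgRNA-A its value of -0.15 did not pass (adjusted p = 0.0580), though it passed without control replicate 2 (0.0207) and with the dimmest 30% of genes removed (0.0405). The mitochondrial ornithine carrier SLC25A15 (-0.13 and 0.04) and the arginine importer SLC7A1 (0.16 and 0.04) did not pass. Between the guides 0 of the 53 genes passed in limma, against 25 of 23931 genes (0.104%), so nothing is read from this count.

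**Figure D3:**
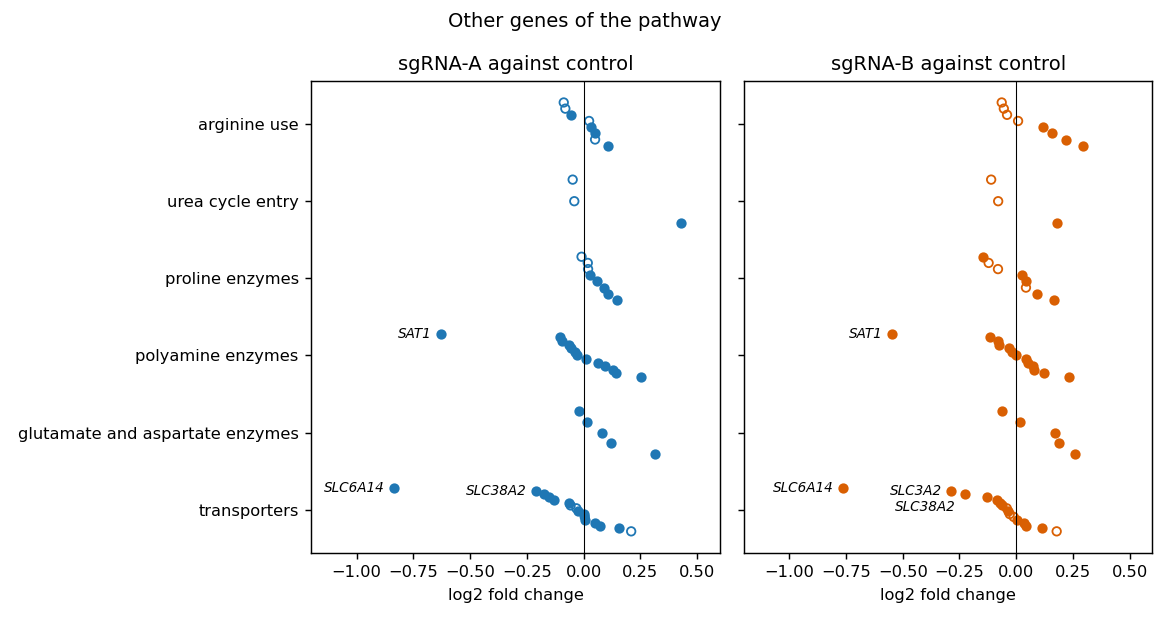
Log2 fold changes of 53 further pathway genes in 6 lists, against control. Filled points are genes with a mean above 4.49 log2 units, open points those below it, and names mark genes that passed the test; height within a list only keeps points apart. SAT1 and SLC6A14 lie apart from the rest, which stay between -0.29 and 0.43.

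ARG2 lies on chromosome 14, the chromosome of the targeted locus, and PRODH on chromosome 22. The nearest measured genes in RefSeq order are given for comparison. Of 6 neighbours of ARG2, 4 above the level of the olfactory receptor genes, 0 passed with sgRNA-A, while sgRNA-B had 1 that did, the retinol dehydrogenase RDH11, at 0.24 (limma, adjusted p = 0.0119). Over all genes 2.18% passed with sgRNA-A and 3.07% with sgRNA-B, so nothing is read from 1 call among 6 genes. All 6 neighbours of ARG2 had log2 fold changes between -0.32 and 0.24. Of 6 neighbours of PRODH, 0 passed with either guide, and their values lay between -0.17 and 0.12.

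**Figure D4:**
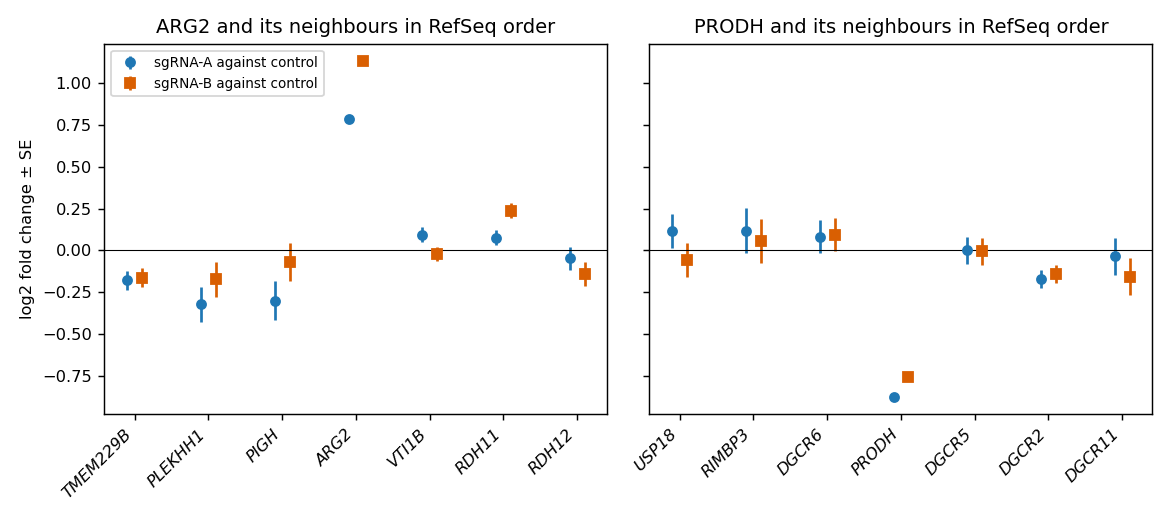
Log2 fold change against control of ARG2 and PRODH and of the 3 nearest measured genes on each side, in chromosome order and not to distance. Bars are SE and are left out for ARG2 and PRODH. Neighbours lie between -0.32 and 0.24.

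The 5 genes whose pattern over the 9 arrays was nearest to that of ARG2 were BMP4, CD79A, NRK, PCDHB6 and GPX8. Likeness was the root mean square difference between log2 values, each taken from the gene's own control mean, and it was 0.18 for BMP4, 0.19 for CD79A, 0.20 for NRK, 0.22 for PCDHB6 and 0.24 for GPX8. For PRODH they were the lysosomal protease gene CTSV (0.11), the sialyltransferase gene ST6GALNAC2 (0.14), the carboxypeptidase gene CPE (0.14), the hyaluronan-binding CEMIP (0.15) and PLEKHG1 (0.15). CTSV had log2 fold changes of -0.96 and -0.79 beside -0.88 and -0.76 for PRODH. BMP4 had 0.70 and 0.96 beside 0.78 and 1.13 for ARG2, but its control arrays varied more (SD 0.37 against 0.12). None of these 10 genes is another of the 9 enzymes, which follows from the measure and is no finding about them. ARG2 and PRODH moved in opposite directions, and the other 7 enzymes had log2 fold changes against control between -0.35 and 0.18. The arrays of a group also share their clone.

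**Figure D5:**
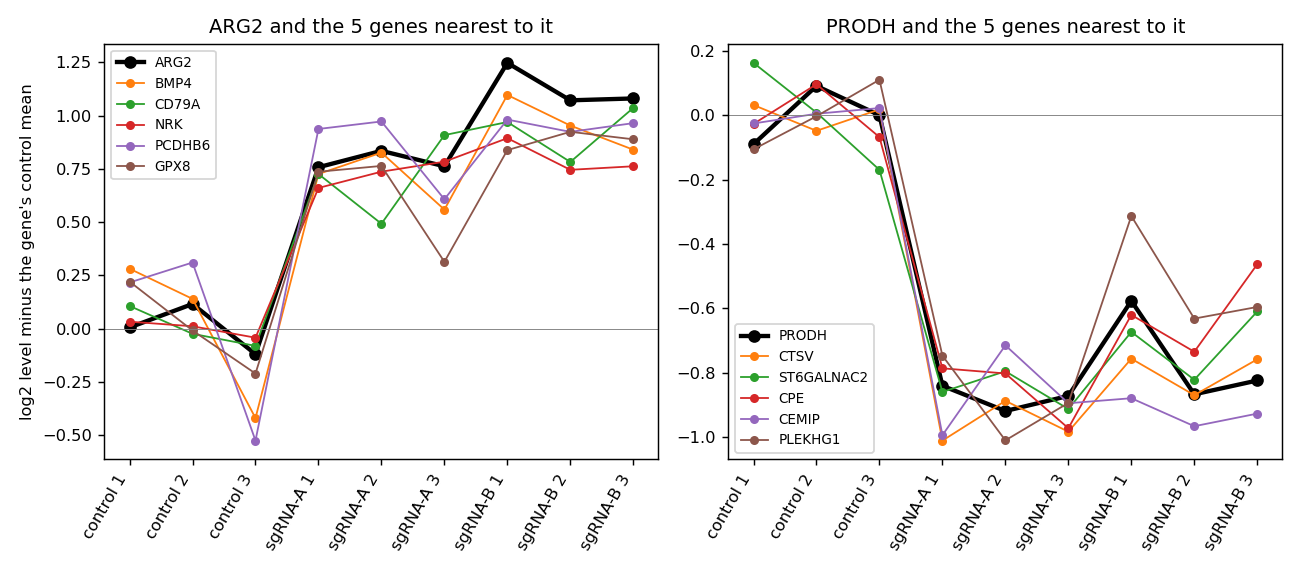
Log2 level minus the gene's control mean on each array, for ARG2 (left) and PRODH (right) in black and the 5 genes nearest to each in colour. Lines only join the points of 1 gene, since arrays of a group have no order. ARG2 stands above its nearest genes on the sgRNA-B arrays.

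Markers of other cell types were measured beside these results. Of 6 immune markers, the B-cell receptor component CD79A rose by 0.71 with sgRNA-A and 0.93 with sgRNA-B (limma, adjusted p = 0.00471 and 0.000664). The lysosomal CD68 rose by 0.30 and 0.23 (limma, adjusted p = 0.00877 and 0.0253). Over all genes 0.957% rose with sgRNA-A and 1.56% with sgRNA-B. PTPRC, CD3E, MS4A1 and CD14 lay below the level of the olfactory receptor genes. The summed immune markers on a linear scale were 497 to 515 on the control arrays, 628 to 666 with sgRNA-A and 646 to 671 with sgRNA-B. These sums mainly follow CD79A and CD68, the only members above the level of the olfactory receptor genes. Of 5 fibroblast and 4 endothelial markers 0 passed with either guide (all genes: 2.18% with sgRNA-A, 3.07% with sgRNA-B), and COL1A1 alone lay above that level. Their part in the differences of ARG2 and PRODH was not tested. As these are bulk samples, fewer cells with a transcript and less of it per cell cannot be told apart.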

How the data were processed

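Gene expression in 9 cultures was measured on Affymetrix arrays. The deposited table holds log2 values of 24733 probe sets, made by the authors with RMA, per the submitters' processing notes; version, background settings and genome build are not given in the sources used here. Groups and replicate numbers came from the sample titles. Of the probe sets, 23934 had 1 gene symbol, 0 several and 799 none, and 23893 gene numbers matched RefSeq (GRCh38.p14), used for names and gene order. For 3 symbols with several probe sets the brightest was kept, leaving 23931 genes.

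All arrays entered 1 model in limma 3.58.1 (R 4.3.3; lmFit, eBayes with trend, 6 residual and 7.27 prior degrees of freedom). P-values were adjusted by Benjamini-Hochberg over all genes, and a gene rose, fell or was called at an adjusted p below 0.05. The steps were tested on simulated data. Levels are mean ± SD of 3 arrays, and the number of arrays limits the precision. Members, lists and tests were chosen with earlier results of these data known. Named were all members, pathway genes called in any comparison (at most 6 per list and comparison), the 5 nearest patterns and 3 neighbours a side; other list genes were named after their values were seen. The 18 alternatives were leaving out each array, a replicate block, array weights, other variance models, fits of 2 groups, removal of the dimmest 30% of genes, other normalization or centring, and averaged probe sets.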

Additional observations from a re-analysis of the deposited data

Results flagged for a closer look

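ODC1 was picked out because its level differed between the sgRNA-B and sgRNA-A clones by a test of the difference itself. With sgRNA-B it fell by 0.19 on the log2 scale against control and with sgRNA-A its value was 0.01, and the difference of sgRNA-B minus sgRNA-A was -0.20 (limma, adjusted p = 0.0413). Limma's adjusted p ranged from 0.0302 to 0.253 over 18 alternatives and passed in 9. Guide and clone cannot be told apart in this difference. No other enzyme of the 9 and 0 of the 53 further pathway genes passed the test of sgRNA-B against sgRNA-A. The share over all genes was 0.104%, so nothing is read from these counts.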

How the results depend on the processing

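ARG2 and PRODH kept their direction under all 18 alternatives, ARG2 at 0.72 to 0.84 with sgRNA-A and 1.07 to 1.19 with sgRNA-B, PRODH at -0.92 to -0.83 and -0.85 to -0.70 (log2 fold change, all alternatives). Both were chosen for large values in these comparisons, so their kept direction follows largely from that choice and is no separate support. With 1 array left out, the count of all genes called was 223 to 435 for sgRNA-A, 353 to 735 for sgRNA-B and 6 to 30 between the guides, and the count of the 9 enzymes called between the guides was 0 to 1. That last count was 0 with the replicate block and 0 without a variance trend. Counts of all genes moved by over 1.5 times without sgRNA-A replicate 1, 2 or 3 (269, 321 and 254) or control replicate 1 (223) for sgRNA-A, without sgRNA-B replicate 1, 2 or 3 (353, 400 and 459) or control replicate 1 or 3 (413 and 453) for sgRNA-B, and without any 1 of the 6 guide arrays between the guides (6 to 12). A fit of sgRNA-A and control arrays alone called 321 genes. Signs of uncalled values near 0 turned with 1 array left out: ASL (-0.0926 to 0.047 with sgRNA-A, -0.041 to 0.0596 with sgRNA-B, -0.0496 to 0.09 between guides), OAT with sgRNA-B (-0.0059 to 0.0488) and ODC1 with sgRNA-A (-0.0107 to 0.0275). With array weights ASL between the guides was -0.0023. The cause was not tested, and refits without an array rest on fewer samples.

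Whether replicate numbers pair the arrays was not settled. Deviations of same-numbered arrays correlated weakly, at -0.15 to 0.14 over 9 pairs, 1 of them above 0.1. In 10 of 18 comparisons, each among 3 replicate numbers, the correlation was highest for the same number. With the replicate block limma called 465, 684 and 34 genes, against 522, 735 and 25 without it, and ODC1 between the guides had an adjusted p of 0.0607. Among the 9 enzymes, SAT1, SLC6A14, SLC38A2 and SLC3A2 it changed no other call, and calls of other genes named here were not compared under it.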
